A study of Mus musculus with 4 samples.

Results

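The antioxidant and ferritin genes described here were Gpx1, Gpx3, Gpx4, Prdx1, Prdx2, Sod1, Sod2, Cat, Fth1 and Ftl1, which are 10 of the 32285 genes in the matrices, chosen by name. They were read in mouse posterior eyes profiled with Visium, a slide whose grid of barcoded spots captures the RNA of the tissue section above it and counts it as unique molecular identifiers (UMIs). The study concerns glaucoma brought on by Wif1, a secreted inhibitor of Wnt signalling that was delivered with AAV2/2 under a CMV promoter (CMV-Wif1-HA or CMV-Wif1-HA-IRES-GFP), with CMV-IRES-GFP as the control vector. There were 4 capture frames of fresh-frozen C57BL/6J eyes, labelled as biological replicates of retina, and all carried the treatment label Naive+AAV2/2. The labels give neither the age of the mice nor which sections of a frame were naive or injected, so no treatment effect could be compared and a frame may pool conditions. Every comparison below is between regions of the same frames.

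Cells that use much oxygen make superoxide, which superoxide dismutases turn into hydrogen peroxide. Catalase, glutathione peroxidases and peroxiredoxins then break down hydrogen peroxide and lipid peroxides, while ferritin locks away the iron that would otherwise turn peroxide into hydroxyl radicals. The retina is known for its high oxygen use, for polyunsaturated lipids in the rod outer segments and for a pigment epithelium that takes up shed outer segments each day.

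The frames held 4603 spots over tissue and 3522010 UMIs, between 674029 and 1066633 per frame, and the median spot held between 430 and 631 UMIs. A spot covers a small area with several cells, and was placed in a group when the markers of that group stood out in it. Of 2819 spots with at least 20 UMIs of marker genes, 2131 were placed and 688 fitted no group. The 6 regions compared were the rod, inner retina, pigment epithelium, fibrous, muscle and optic nerve regions. The optic nerve region of frame 1 had 2 spots and was not used, so n was 4 frames for every region but that one, where n was 3. Their defining markers were present: Rpe65 in the pigment epithelium region was at 1117 UMIs per 1000000 UMIs (CPM), Col1a1 in the fibrous region at 2461 CPM, Myh4 in the muscle region at 11533 CPM and Mobp in the optic nerve region at 3067 CPM. The regions were nevertheless mixtures, since photoreceptor markers made up 37171 to 58250 CPM of the pigment epithelium region, 36053 to 53501 CPM of the fibrous region and 32677 to 66456 CPM of the muscle region, against 98598 to 105605 CPM in the rod region itself. Between 220 and 824 barcodes were shared by pairs of frames, which all use one fixed grid of barcodes.

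The 10 genes lie on 10 chromosomes in the RefSeq annotation of GRCm38.p6 and all are protein coding. Sod1 (ENSMUSG00000022982) spans chr16:90220762-90226333, Gpx4 (ENSMUSG00000075706) chr10:80047166-80056439, Cat (ENSMUSG00000027187) chr2:103453904-103485153, Fth1 (ENSMUSG00000024661) chr19:9980600-9985111 and Ftl1 (ENSMUSG00000050708) chr7:45457944-45459886. Many antioxidant genes are known targets of the transcription factor NRF2, which binds antioxidant response elements. The core letters of that element, TGACNNNGC, were searched on both strands of RefSeq's promoter windows (GRCm38.p6, 250 bases before to 50 after each gene start), which existed for all 10 genes. The 10 genes had 14 such windows, since some genes had several. Of these 14 windows 2 held a match, those of Prdx1 and Sod1, and 12.4% of all 32851 promoter windows held a match. Whether these shares differ was not tested. The stretches around both matches are shown because Sod1 is the gene with the clearest difference between retinal layers below. Each reads 5′ to 3′ on the strand of the gene, with the match in capitals, and in both the element lies on the opposite strand.
Prdx1, chr4:116685436-116685504, plus strand: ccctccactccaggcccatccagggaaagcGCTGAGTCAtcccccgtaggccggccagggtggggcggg
Sod1, chr16:90220676-90220744, plus strand: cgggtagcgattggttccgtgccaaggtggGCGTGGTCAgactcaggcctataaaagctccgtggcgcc
The match began 133 bases before the Prdx1 gene start and 56 bases before that of Sod1. A match describes letters in a window, not binding.

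Over whole frames, 7 of the 10 genes differed by less than 1.5 times between the lowest and the highest frame, and Ftl1, Cat and Gpx3 differed by more. Sod1, the copper-zinc superoxide dismutase of the cytosol, was at 433, 389, 363 and 361 CPM in frames 1 to 4, a mean of 386 CPM ± 33.8 (SD, n = 4). Sod2, its manganese counterpart in mitochondria, was at 286, 299, 248 and 234 CPM. Gpx4, the peroxidase that acts on lipid peroxides within membranes, was at 300.3, 355, 322 and 323 CPM. These 3 genes were therefore at much the same level in every frame. Fth1, the ferritin heavy chain with the iron-oxidising site, was at 578, 501, 506 and 546 CPM. Ftl1, the ferritin light chain, was at 212, 252, 209 and 160.2 CPM. Cat, the peroxisomal catalase, was at 219, 258, 293 and 171 CPM, lowest in frame 4. Prdx1 and Prdx2, cytosolic peroxiredoxins, ranged from 105 to 149 CPM and from 94.95 to 128 CPM. Gpx1, the main cytosolic glutathione peroxidase, was the thinnest in UMIs, with 181 in all and 42.9 to 60.9 CPM. Gpx3, the secreted glutathione peroxidase, was at 109, 95.6, 219 and 84.6 CPM, and frame 3 stood above the other frames by more than their counting intervals. Its highest spot, in frame 3, held 75 of that frame's Gpx3 UMIs, and without that spot frame 3 was at 135 CPM.

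**Figure D1:**
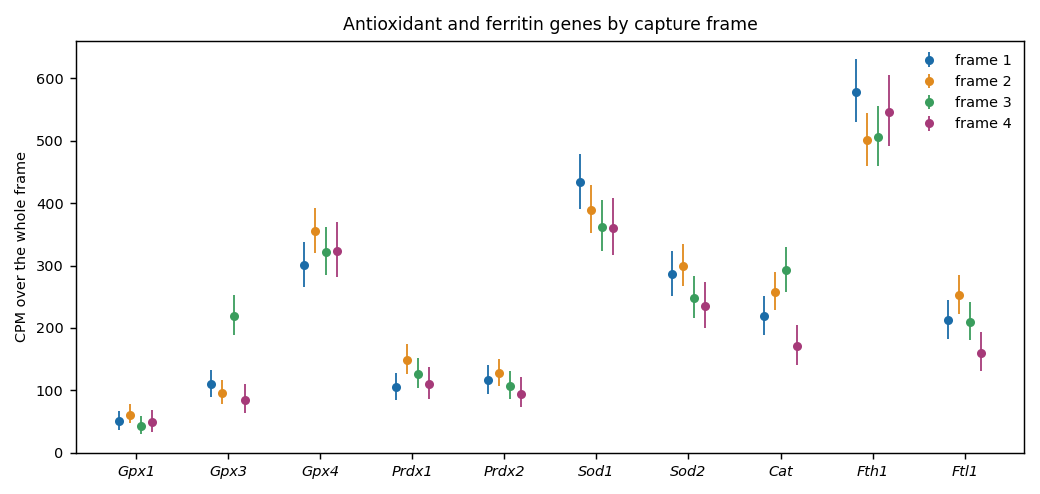
Level of each of the 10 genes over all spots of each of the 4 frames, in CPM on a linear axis; points are frames and bars are exact Poisson 95% intervals, which cover counting error only. Gpx3 in frame 3 (219 CPM) lies above its other frames (84.6 to 109 CPM), while Fth1 lies between 501 and 578 CPM in all 4.

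Between the inner retina and the rod region, Sod1 was higher in the inner retina and Gpx4 was higher in the rod region, each in 4 of 4 frames. Sod1 was at 256, 172, 195 and 161 CPM in the rod region and at 645, 512, 725 and 741 CPM in the inner retina of frames 1 to 4. The ranges did not overlap, and the lowest inner retina frame was above the highest rod frame. The fitted log2 fold was 1.64 (± 0.34, SD of the frames' own log2 folds, n = 4), or 3.12-fold, with an adjusted p of 7.91e-06 in edgeR's quasi-likelihood test. In a bulk sum of spots, fewer cells of a type and less RNA per cell cannot be told apart. Gpx4 was at 475, 542, 436 and 529 CPM in the rod region and at 164, 225, 283 and 162 CPM in the inner retina. Its ranges did not overlap either, with a log2 fold of -1.37 (± 0.42, n = 4) and an adjusted p of 0.000265 in the edgeR test. The inner retina held ganglion cell markers at 10160 to 18805 CPM and Müller cell markers at 1444 to 2690 CPM, and immune markers, of which 9 of 10 had a UMI there, at 831 to 2479 CPM against 166 to 292 CPM in the rod region. The part of immune cells in these folds was not tested. Both calls held in all 17 alternative settings run, with Sod1 between 1.22 and 1.77 and Gpx4 between -1.71 and -1.17 on the log2 scale. The settings counted here and below include the fit without blood-rich spots, which repeated the reported fit.

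Of the 10 genes, 6 (Gpx4, Sod1, Sod2, Cat, Fth1 and Ftl1) had enough UMIs to be tested, and Gpx1, Gpx3, Prdx1 and Prdx2 did not pass the filter on low counts. In this comparison 1 of the 6 was higher and 1 lower, where 26.7% of all 1147 genes tested were higher and 21.6% lower. The median log2 fold of the 6 was 0.12 and that of all genes 0.04. Ftl1 had a log2 fold of 0.76 (adjusted p = 0.124, edgeR), higher in 3 of 4 frames. Sod2, Cat and Fth1 had log2 folds of 0.38, -0.15 and -0.17 and did not pass. The difference between the folds of both dismutases was not tested. Within the pair, Sod1 made up 45.5% of the UMIs of Sod1 plus Sod2 in the rod region (95% exact interval 39.1 to 52.0%) and 66.1% in the inner retina (62.4 to 69.5%). By frame the share was 54.7, 35.1, 42.9 and 58.1% in the rod region and 64.1, 57.9, 73.8 and 73.4% in the inner retina, higher in the inner retina within each frame although frame 4 of the rod region slightly exceeded frame 2 of the inner retina. Such a share does not depend on how the libraries were scaled.

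In the pigment epithelium region Cat was the gene that stood out, at 1369.8, 1153, 1334 and 1418 CPM in frames 1 to 4. In the rod region it was at 183, 153, 208 and 71.7 CPM, and in the inner retina at 159, 120.2, 132 and 191 CPM. All 4 pigment epithelium values were above every value of the other 5 regions, of which the highest was 876 CPM, in the muscle region. Against the neural retina, taken as the mean of rod and inner regions, the log2 fold of Cat was 3.10 (± 0.12, n = 4), an 8.57-fold difference with an adjusted p of 2.45e-10 in the edgeR test. The markers of the pigment epithelium summed to 12347 to 23058 CPM there, against 1013 to 1646 CPM in the rod region. This call held in all 16 alternative settings run, between 2.60 and 3.18 on the log2 scale. Against the fibrous region, where Cat was at 131, 266, 519 and 172 CPM, its log2 fold was 2.33 (± 0.80, n = 4, adjusted p = 0.00122, edgeR), higher in 4 of 4 frames. Without frame 2 that adjusted p was 0.101, at a log2 fold of 2.28.

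Sod1 was also higher in the pigment epithelium region, with 1121, 799, 493 and 354 CPM in frames 1 to 4 and a log2 fold of 0.95 against the neural retina (± 0.80, n = 4, adjusted p = 0.0229, edgeR). The direction held in 3 of 4 frames, and the range took in that of the inner retina and lay above that of the rod region. Without frame 1 the adjusted p was 0.127 and without frame 2 it was 0.40, at log2 folds of 0.84 and 0.58. Ftl1 (log2 fold 1.17, adjusted p = 0.0563), Gpx4 (0.70, adjusted p = 0.166) and Fth1 (0.55, adjusted p = 0.176) were each higher in 4 of 4 frames and did not pass in the edgeR test. The 414 to 623 CPM of Gpx4 in the pigment epithelium region took in its range in the rod region, 436 to 542 CPM. Sod2 had a log2 fold of 0.05. Of the 6 genes tested, 2 were higher and 0 lower against the neural retina, where 7.85% of all genes were higher and 1.83% lower. The medians were 0.82 for the 6 genes and -0.01 for all genes. Counts of 0 lower genes in this and the next 4 comparisons, by edgeR, were also 0 at an unadjusted p under 0.05 and by DESeq2. Against the fibrous region 1 of the 6, Cat, was higher and 0 were lower, beside 1.39% and 0.262% of all genes, with medians of 0.36 and 0.04.

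**Figure D2:**
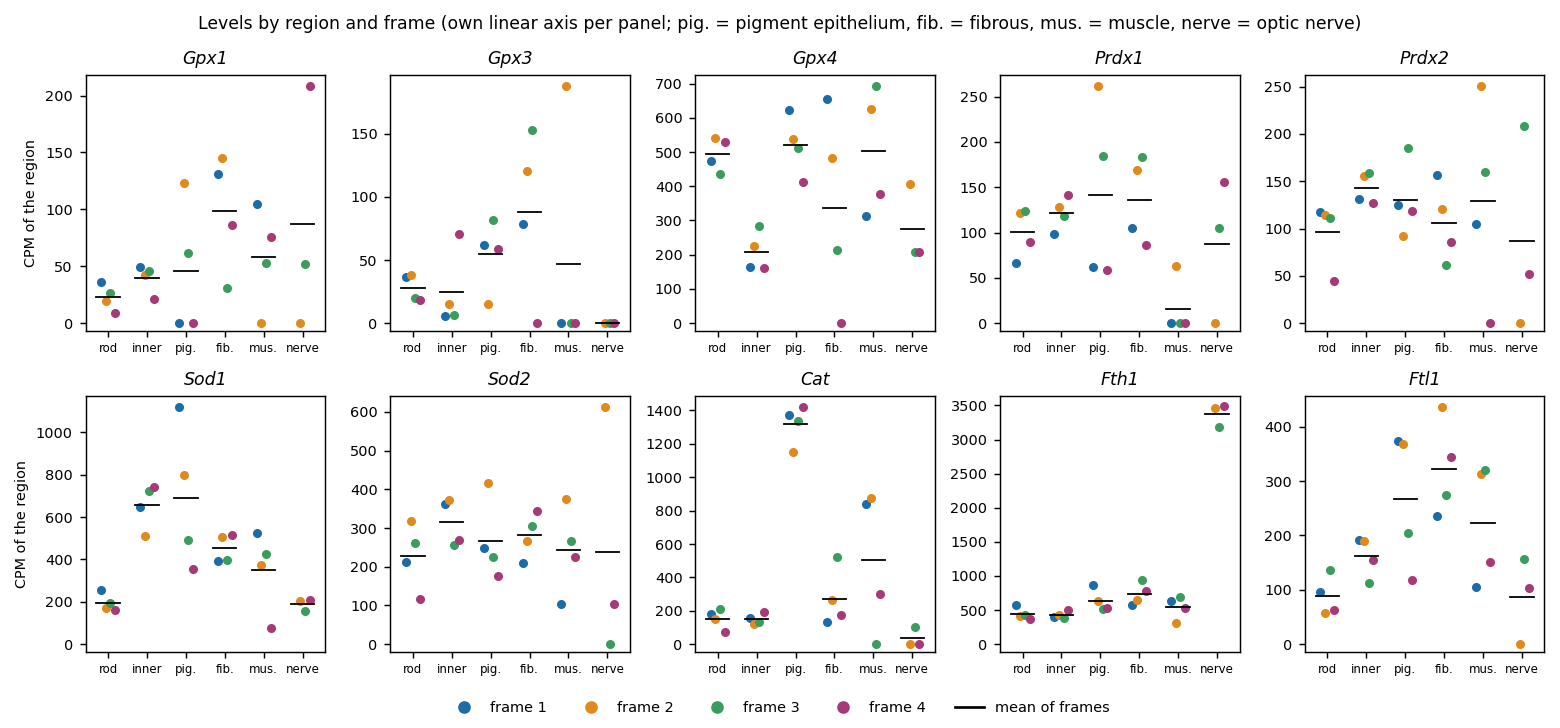
Level of each gene in the 6 regions, in CPM of the region on a linear axis of its own for each panel; points are frames and lines are means over frames. Cat stands apart in the pigment epithelium region (1153 to 1418 CPM), Fth1 in the optic nerve region (3186 to 3485 CPM), and Sod1 and Gpx4 split the rod region from the inner retina.

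In the fibrous region Ftl1 was at 235, 435, 275 and 345 CPM in frames 1 to 4, against 95.1, 57.3, 137 and 62.8 CPM in the rod region and 191, 190.0, 112 and 155 CPM in the inner retina. The fibrous values all lay above the neural ones. The log2 fold was 1.27 (± 0.46, n = 4, adjusted p = 0.0411, edgeR), higher in 4 of 4 frames. Leaving out any of the 4 frames ended the call, with adjusted p-values of 0.0508, 0.374, 0.102 and 0.102 without frames 1 to 4 and log2 folds of 0.99 to 1.51. Fth1 had a log2 fold of 0.65 (adjusted p = 0.114) and was higher in 4 of 4 frames. Gpx4 ranged most, with 654, 484, 214 and 0 CPM, the last being 0 of the 11610 UMIs of frame 4, which had the fewest fibrous UMIs. Of the 6 genes 1 was higher and 0 lower, where 5.93% of all genes were higher and 2.01% lower, and the medians were 0.43 and -0.04. Melanocyte markers, of which 5 of 6 were detected, summed to 1637 to 4430 CPM in this region, against 314 to 873 CPM in the rod region and 339 to 539 CPM in the inner retina. Pigment epithelium markers, 9 of 10 detected, summed to 775 to 6359 CPM, against 1013 to 1646 CPM and 344 to 732 CPM. Over all frames Ftl1 was at 526 CPM in the spots of the melanocyte group and at 323 CPM in the fibrous region. By frame the melanocyte group ranged from 0 to 714 CPM. The part of these markers in the Ftl1 result was not tested. Immune markers, which include genes of macrophages, a cell type known for handling iron, summed to 497 to 1723 CPM. They were at 166 to 292 CPM in the rod region and at 831 to 2479 CPM in the inner retina. Over all frames Ftl1 was at 388 CPM in the spots of the immune group, and by frame at 260 to 479 CPM. The part of immune markers in the Ftl1 result was not tested either.

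In the muscle region Cat was at 838, 876, 0 and 302 CPM in frames 1 to 4, so frame 3 had 0 Cat UMIs in 18785. The log2 fold was 1.56 (± 2.40, n = 4) with an adjusted p of 0.0487 in the edgeR test, higher in 3 of 4 frames. The frames' own spread was larger than the fold. Without frame 1 the adjusted p was 0.265 and without frame 2 it was 0.616, at log2 folds of 1.38 and 0.84. Pigment epithelium markers, 9 of 10 detected, summed to 5132, 8134, 2715 and 1131 CPM in the muscle region of frames 1 to 4, and their part in the Cat value was not tested. Of the 6 genes 1 was higher and 0 lower, beside 4.18% and 1.66% of all genes, with medians of 0.45 and -0.10. Prdx1 had 1 UMI in the whole muscle region, or 17.4 CPM with a counting interval of 0.44 to 96.8 CPM, against 102 CPM in the rod and 121 CPM in the inner region. In a fit of only the muscle, rod and inner regions, added after the data were seen, its log2 fold was -2.92 with an adjusted p of 0.112 (edgeR).

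In the optic nerve region Fth1 was at 3464, 3186 and 3485 CPM in frames 2, 3 and 4, from 17, 61 and 67 UMIs. It was at 570.3, 408, 429 and 377 CPM in the rod region and at 394, 427, 382 and 501 CPM in the inner retina. The 3 nerve values were close together and far above the values of all other regions, of which the highest was 947 CPM in the fibrous region. The log2 fold against the neural retina was 3.02 (± 0.37, n = 3), or 8.08-fold, with an adjusted p of 2.07e-13 in the edgeR test. All genes together had a median of -0.38 in this comparison, and the fit without the filter on low counts moved all shared genes by a median of -1.09. Fth1 was at 1.90 in that fit and held its call in all 16 settings run.

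The light chain was not called in the same comparison. Ftl1 had 0, 3 and 2 UMIs in the optic nerve region of frames 2 to 4, a level of 0, 157 and 104 CPM, and a log2 fold of 0.10 (± 1.53, n = 3, adjusted p = 0.94, edgeR). Of the UMIs of both ferritin chains, Fth1 made up 100, 95.3 and 97.1% in the optic nerve region of frames 2 to 4, and 96.7% over all of them (95% exact interval 92.4 to 98.9%). The share was 83.3% in the rod region (78.6 to 87.4%), 71.7% in the inner retina (67.2 to 75.9%), 67.9% in the pigment epithelium region (59.2 to 75.8%), 69.0% in the fibrous region (60.3 to 76.8%) and 68.9% in the muscle region (53.4 to 81.8%). Each of the 3 nerve frames lay above every frame of the other 5 regions, of which the highest was 87.7% in the rod region. Oligodendrocytes, the myelin-forming cells of the nerve, are known to be rich in ferritin, and the 12 oligodendrocyte markers used to place these spots summed to 70905 to 214644 CPM. Müller cell and astroglial markers also moved with Fth1. All 6 of 6 were detected in the nerve and summed to 5201 to 10187 CPM, against 344 to 2690 CPM in the other 5 regions, and Gfap, the filament protein of astrocytes, was at 5728 CPM against 184 CPM or less elsewhere. The part of either marker list in the Fth1 result was not tested. Immune markers there summed to 157 to 988 CPM, within the range of the other regions.

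Gpx4, Sod1 and Cat were lower in the optic nerve region in 3 of 3 frames and did not pass, with log2 folds of -0.28, -0.74 and -1.54. Cat had 2 UMIs there in 43283. Of the 6 genes 1 was higher and 0 lower, where 11.9% of all genes were higher and 10.8% lower, and the medians were -0.51 and -0.38. Gpx3 had 0 UMIs in the optic nerve region, with a counting interval of 0 to 85.2 CPM. This does not set the nerve apart from the other regions, including the fibrous region, where the frames ranged from 0 to 153 CPM.

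**Figure D3:**
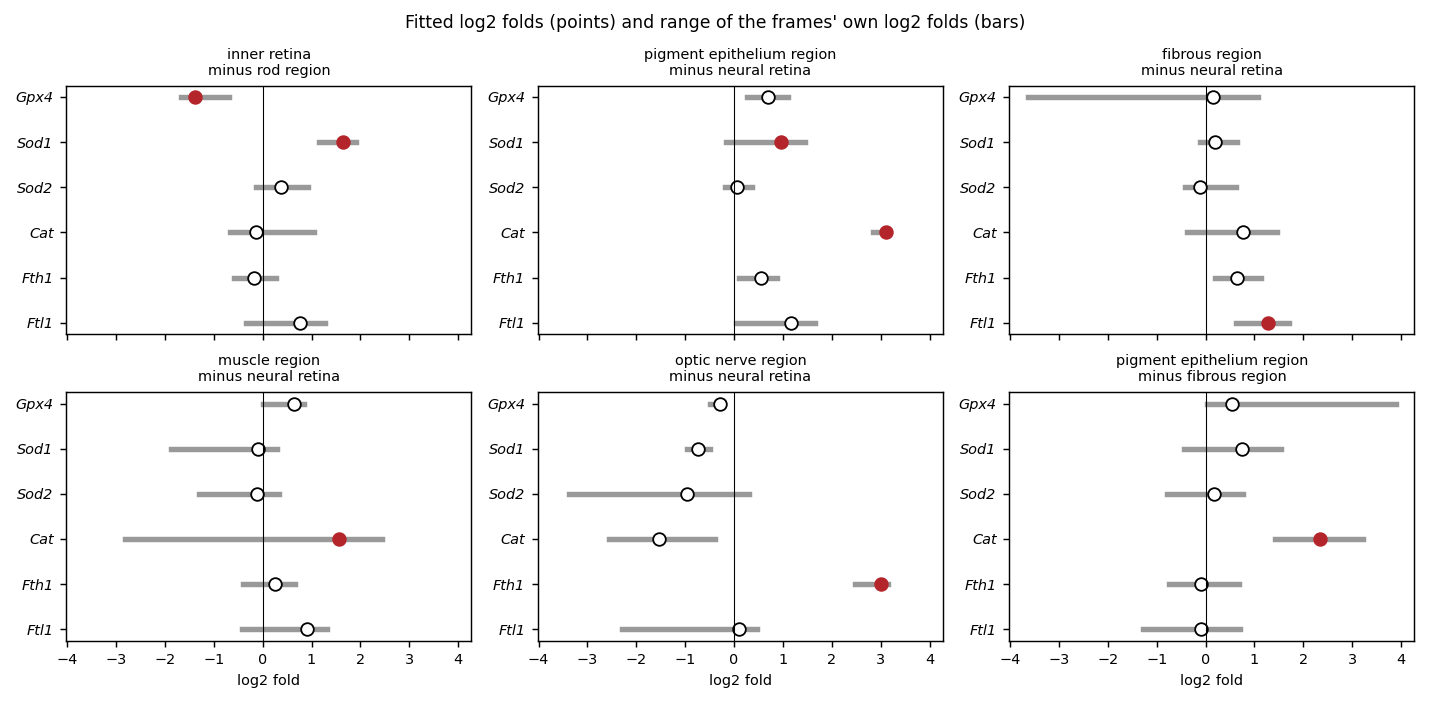
Log2 folds of the 6 genes tested in the 6 comparisons between regions; points are fitted folds, filled where the adjusted p was under 0.05 (edgeR), and bars run from the lowest to the highest frame's own log2 fold. Cat in the pigment epithelium region (3.10) and Fth1 in the optic nerve region (3.02) have the largest folds, and the bar of Cat in the muscle region crosses 0.

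**Figure D4:**
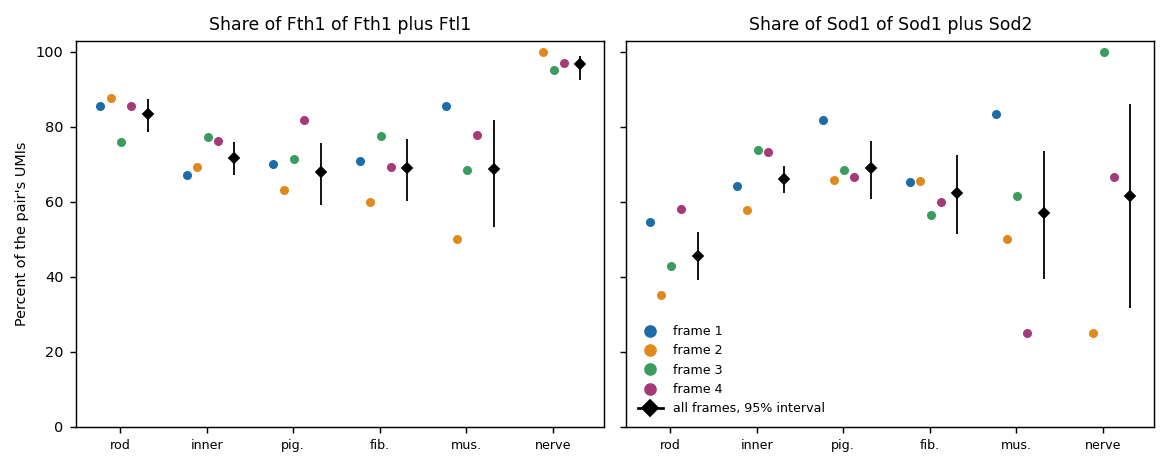
Share of Fth1 in the UMIs of Fth1 plus Ftl1 (left) and of Sod1 in Sod1 plus Sod2 (right) by region, in percent; coloured points are frames and black diamonds all frames together with exact 95% binomial intervals, which cover counting error only. The ferritin share reaches 96.7% in the optic nerve region, and the dismutase share is lowest in the rod region (45.5%).

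The 4 genes below the filter are given by their levels. Prdx2 was at 117, 115, 111 and 44.8 CPM in the rod region and at 131, 155, 158 and 127 CPM in the inner retina, higher in the inner retina of all 4 frames. In a fit of the rod and inner regions alone, added after the data were seen, its log2 fold was 0.43 (adjusted p = 0.286) and that of Prdx1 0.14 (adjusted p = 0.745, edgeR). Prdx1 was at 62.3, 261, 185 and 59.1 CPM in the pigment epithelium region, a range that spans its levels in the rod, inner and fibrous regions. Gpx1 had its highest mean in the fibrous region, at 98.1 CPM ± 51.6 (SD, n = 4), and its lowest in the rod region, at 22.7 CPM ± 11.6, from 13 UMIs in each. The ranges of Gpx1 overlapped between all neighbours in the order fibrous, optic nerve, muscle, pigment epithelium, inner and rod. For Sod2 too, every neighbour in the order inner, fibrous, pigment epithelium, muscle, optic nerve and rod overlapped, with means from 227 to 315 CPM.

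Gpx3 UMIs were concentrated outside the 6 regions. Spots placed by melanocyte markers or by immune markers held 63.2% of its 451 UMIs and 10.8% of all UMIs. In the 198 spots of the melanocyte marker group it was at 765, 374, 902 and 1949 CPM in frames 1 to 4, all above every value in the 6 regions, where the highest was 188 CPM. In the 124 spots of the immune marker group it was at 259.8, 282, 2732 and 164 CPM, and frame 3 fell to 1107 CPM without its highest spot. Over all frames that group was at 803 CPM with the spot and 418 CPM without it. The melanocyte group held pigment epithelium markers at 3608 to 6895 CPM and immune markers at 1194 to 2142 CPM, and the immune group held melanocyte markers at 450 to 6327 CPM, whose part in the Gpx3 level was not tested. Of all 4603 spots, 180 had a Gpx3 UMI, and 38 spots with at least 3 held 62.97% of its UMIs, 17 of them in the melanocyte group and 10 in the immune group. Genes with the highest folds in those 38 spots, looked up after their values were seen and given with no test, included Cldn2 (21 UMIs there and 8 in all other spots), F5, Sned1, Optc, Slc13a4 and Penk. Optc encodes opticin, a proteoglycan of the vitreous, and was at 882 CPM in those spots against 31.0 CPM in all others. Cat was at 175, 434, 601 and 0 CPM in the melanocyte group, below its pigment epithelium level in every frame.

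**Figure D5:**
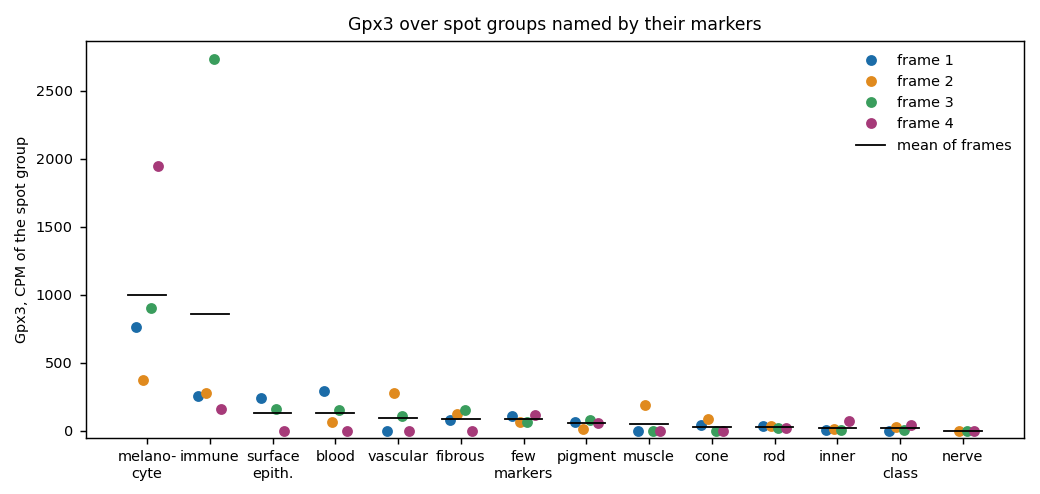
Level of Gpx3 in each group of spots with at least 10 spots in 3 or 4 frames, in CPM of the group on a linear axis; points are frames and lines are means over frames, and groups are named by the markers that placed them. The melanocyte group (374 to 1949 CPM) lies above all 6 regions, and the immune group is high in frame 3 (2732 CPM).

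Among other genes of redox defence and iron, 15 of 107 listed passed the filter, and those named here had the lowest p-values of their list. Of the 3 metallothioneins, which bind zinc and copper, 2 were tested, and both Mt1 and Mt2 were higher in the pigment epithelium (log2 folds 3.07 and 3.06), fibrous (1.30 and 1.46) and optic nerve (2.93 and 3.08) regions than in the neural retina. In these comparisons 7.85, 5.93 and 11.9% of all genes tested were higher. In the pigment epithelium region Mt1 was at 809 to 1355 CPM over 4 frames against 115 to 137 CPM in the rod region, so the ranges did not overlap. Trf, the iron carrier transferrin, 1 of 4 iron genes tested, was higher in the pigment epithelium (log2 fold 3.64, adjusted p = 1.28e-11), optic nerve (3.25, adjusted p = 4.06e-07) and fibrous (1.95, adjusted p = 0.000317) regions by edgeR. In the fibrous region Trf was higher in 3 of 4 frames and at 0 CPM in the other, and the SD of the frames' log2 folds was 2.35, larger than the fold. Mt1 and Mt2 were likewise higher there in 3 of 4 frames, with SDs of 0.95 and 0.98. Against the fibrous region, Mt1 (1.78), Mt2 (1.60, both adjusted p = 0.00404) and Trf (1.69, adjusted p = 0.0104) were higher in the pigment epithelium region by edgeR. Each was so in 4 of 4 frames, beside 1.39% of all genes, and the SD for Trf was 1.95, larger than its fold. Between inner retina and rod region 1 of the 4 iron genes was higher and 2 lower, beside 26.7% and 21.6% of all genes. Cp, the ferroxidase ceruloplasmin, was higher (log2 fold 1.74), while Pcbp2, known as an iron chaperone that loads ferritin, was lower (-1.75), as was Trf (-1.21), named after its value was seen. Cp reached the level of the filter on low counts in 1 inner retina sum and 2 nerve sums, where 3 were needed. It would not have been tested without the inner retina, so its fold and the count of 1 higher iron gene are given as descriptions. Pcbp2 was also lower in the optic nerve region (-1.90, adjusted p = 0.0239, edgeR), where it had 5 UMIs and was at 0 CPM in 1 of 3 frames.

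Of 3 thioredoxin-related genes tested, 2 were higher in the inner retina than in the rod region, where 26.7% of all genes tested were higher. They were Glrx, with a log2 fold of 1.68 (adjusted p = 0.00107, edgeR), and Srxn1, which repairs overoxidised peroxiredoxins, with 2.20. Of 3 genes listed with NRF2, 2 were higher there too, Sqstm1 (2.19) and Oxr1 (1.53), each in 4 of 4 frames, beside the same 26.7% of all genes. Srxn1 reached the level of the filter on low counts in 2 inner retina and 2 nerve sums, and Oxr1 in 4 inner retina sums and 1 fibrous sum. As 3 sums were needed, neither would have been tested without the inner retina, and the folds of Srxn1 and Oxr1 are given as descriptions. The counts of 2 of 3 in both lists include these genes, so they too are descriptions and not results about the lists. Txnip, which binds and restrains thioredoxin, was higher in the fibrous (2.25), muscle (2.13) and pigment epithelium (1.02) regions. Prdx6, the 1 gene tested of the other peroxidases, was at 468 to 679 CPM in the optic nerve region, from 25 UMIs, and at 13.0 to 43.9 CPM in the rod region. It reached the level of the filter in the 3 nerve sums and in 0 sums of the other regions, so it was tested only because it was high in the nerve, and its log2 fold of 4.17 there is given as a description. Selenop, a selenium carrier and 1 of 2 selenium genes tested, reached that level in 2 nerve sums and 1 muscle sum, and its fold of 4.07 in the nerve, higher in 2 of 3 frames with an SD of 2.44, is likewise a description. No gene of the glutathione list, of 24, passed the filter.

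The genes most like each of the 10 were found by Pearson's r of log2(CPM + 10) over the 23 sums of frame and region, among 2917 genes with a mean of at least 50 CPM. These sums share libraries and counting noise, so r is a description. For Gpx4, 1 of the 2 most like genes was Rack1 (r = 0.87), and the other is not reported here. Fth1 was most like Tmem88b (0.89) and Bcas1 (0.88), the second a gene of oligodendrocytes, and Cat most like Crim1 and Prxl2a (0.79 and 0.78). Sod1 was most like Stip1 and Kcnj9 (0.79 and 0.76), Sod2 like Mir124-2hg and Fyttd1 (0.83 and 0.80), and Ftl1 like Irgm1 and Hdac3 (0.86 and 0.83). Prdx1 was most like Siah2 and Ubqln2 (0.87 and 0.81), Prdx2 like Pfkl and Atp5g3 (0.86 and 0.86), Gpx1 like Gdi2 and Rnd3 (0.71 and 0.71) and Gpx3 like Zswim1 and Lrp1 (0.81 and 0.76). Gpx3 itself did not reach the mean of 50 CPM asked of the genes compared. It had 0 to 16 UMIs per region, so its r values rest on very few counts.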

How the data were processed

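Visium counts of 4 frames were used as deposited: whole numbers of UMIs per gene and spot, which the authors made with Space Ranger 2.0.0 (per the file headers) on mm10 (per the submitters' processing notes). Not given in the sources used here are the annotation release and how reads that match processed pseudogenes, which ferritin genes are known to have, were counted. Members, marker panel and gene lists were chosen with earlier results of these data known.

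Spots with at least 20 UMIs of a panel of 163 genes in 15 classes took the class with the highest marker score, if above 0.5. For 421 spots the score lay within 0.1 of that minimum, and 232 placed spots had a second class within 0.1. Leiden clusters at resolution 0.6 had been planned as the main grouping but gave no fibrous region, so the marker score, listed beside them as another grouping, replaced them before values of the 10 genes by region were seen. In 1 alternative, 6 spots with at least 1% blood markers were left out. That alternative gave the same counts of genes called as the reported fit and a median shift of 0 in every comparison, so it adds no check. No doublet caller was run. Images were not used here.

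UMIs were summed per frame and region with at least 10 spots, giving 23 sums. Neither library sizes nor tests used the panel genes, since these drew the regions from the same spots. Genes passed filterByExpr (edgeR 4.0.16, R 4.3.3, minimum count 10), were scaled by TMM and tested with the robust quasi-likelihood test, all regions in one fit and frame as a replicate block, with Benjamini-Hochberg adjustment over 1147 genes and a limit of 0.05. Both regions of a comparison come from the same frames, and the mean correlation of a frame's region deviations was 0.082, 0.054, 0.060 and 0.092. Each fold carries as ± the SD over frames of single-frame log2 folds, computed at a prior count of 2. The p-values rest on the spread of the 23 sums that is left after region and frame are fitted. Its estimate is shared by all regions and drawn towards that of other genes. A p-value therefore does not measure the frames' own spread in its comparison, which the SD gives. As the labels name no animals, part of the spread may be technical. CPM are UMIs per 1000000 UMIs of the frame or region. Depth was 674029 to 1066633 UMIs per frame, and intervals are exact Poisson or Clopper-Pearson at 95%, for counting error only. All 10 genes are described throughout. For each other list and comparison up to 2 genes with the lowest p among those past the limit were named. The tests were also run on simulated counts with the same baseline profile in all regions, no frame effect and a fixed spread. Such counts do not show how the tests behave on regions as unlike as these. Alternatives were DESeq2 1.42.0, no filter, no block, panel genes kept, no TMM, other groupings, other panel minimums, no blood-rich spots and each frame left out; the score above 1, fits of only the compared regions and the level of Gpx3 without its highest spot were added after seeing the data.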

Additional observations from a re-analysis of the deposited data

Results flagged for a closer look

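Of 60 groups of 4 frames (10 genes in whole frames and 5 regions), 4 held a frame that stood apart from the other 3 by Dixon's criterion. Chance gives about 1 in 20 for normally spread values, a rate that need not hold for counts as sparse as these. Gpx3 in the inner retina was at 70.6 CPM in frame 4, from 10 UMIs, against 5.47 to 15.5 CPM in the others. In the muscle region, frame 2 alone had UMIs of Gpx3 (187.7 CPM, 3 UMIs) and of Prdx1 (62.6 CPM, 1 UMI). Prdx2 in the rod region was lowest in frame 4, at 44.8 CPM from 5 UMIs, against 111 to 117 CPM.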

How the results depend on the processing

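The call of Sod1 and of Gpx4 between inner retina and rod region, of Cat between pigment epithelium region and neural retina and of Fth1 in the optic nerve region held in every setting that gave a value. Over 36 fitted folds, those of the 6 genes tested in 6 comparisons, and all settings, 524 of 566 values kept their side of the limit, 22 lost it and 20 gained it, and no called fold changed sign. Values kept include those of the fit without blood-rich spots, which could not differ from the reported fit. The planned grouping, Leiden clusters at resolution 0.6, gave no fibrous region, and under it 5 of 10 members tested were higher in the pigment epithelium region, where 9.46% of all genes tested were (2 of 6 and 7.85% in the reported grouping). With resolution 1 there were 5 of 9 (9.48% of all genes), with k-means 4 of 10 (4.9%) and with 10 panel UMIs 4 of 6 (9.71%), while without the filter there was 1 of 10 (0.715%) and with 40 panel UMIs 1 of 8 (4.35%). Leaving out 1 frame gave 1 to 2, beside 4.01 to 6.84% of all genes. In the fibrous region the count of higher members was 1 of 6 (5.93% of all genes), and it was 2 of 6 by DESeq2 (7.41%), 4 of 9 at resolution 1 (8.08%) and 3 of 10 by k-means (4.81%). It was 0 without the filter (0.399%), with 10 panel UMIs (7.7%) and with 40 (3.41%), and 0 in each fit with 1 frame left out (3.5 to 5.66%). In the muscle region 1 of 6 was higher (4.18% of all genes), and 0 of 10 without the filter (0.285%) and 0 of 6 with panel genes kept (5.89%). With 40 panel UMIs there were 0 of 8 (2.27%), and 0 of 8 in the fit of the compared regions only (1.09%). With 1 frame left out there were 0 to 1, beside 2.14 to 4.14%. Against the fibrous region, 1 of 6 was higher in the pigment epithelium region (1.39% of all genes), and 0 of 8 with 40 panel UMIs (0.379%) and 0 of 5 with a score above 1 (1.46%). With 1 frame left out there were 0 to 1, beside 0.0891 to 1.53%. In the optic nerve region 0 of 6 were lower (10.8% of all genes), and 1 of 10 without the filter (3.09%), 1 of 5 with a score above 1 (24.3%) and 2 of 10 by k-means (19%).

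Counts of all genes called moved more. Between inner retina and rod region they were 554, and 1638 without the filter, 1250 and 974 by Leiden at resolutions 0.6 and 1, 1476 by k-means, 264 with a score above 1 and 1329 in the fit of the compared regions only. For the pigment epithelium region against neural retina they were 111, and in the same order 170, 391, 318, 537 and, in the fit of the compared regions only, 176; leaving out 1 frame gave 53 to 128. For the fibrous region they were 91, and 270 at resolution 1, 453 by k-means, 60 with 40 panel UMIs and 152 in the fit of the compared regions only; leaving out 1 frame gave 47 to 90. For the muscle region they were 67, and 175 without the filter, 109 with panel genes kept and 125 at resolution 0.6; leaving out 1 frame gave 29 to 78. For the optic nerve region they were 261, and 610 without the filter, 703 and 606 by Leiden, 1070 by k-means and 521 in the fit of the compared regions only; leaving out 1 frame gave 142 to 253. For pigment epithelium against fibrous region they were 19, and 29 by DESeq2, 35 with panel genes kept, 82 at resolution 1, 45 by k-means, 10 with 40 panel UMIs and 30 in the fit of the compared regions only; leaving out 1 frame gave 2 to 29. The cause of these moves was not tested. The fit without a replicate block changed 1 call of the 36, that of Ftl1 in the pigment epithelium region (log2 fold 1.22, adjusted p = 0.0304, edgeR).

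Without the filter, the median of shared genes moved by -0.47 in the pigment epithelium, -0.53 in the fibrous, -0.78 in the muscle and -1.09 in the optic nerve comparison, and higher genes made up 25.7% of calls in the muscle region and 20% in the optic nerve region, against 71.6% and 52.5% in the reported fit. K-means gave no muscle comparison, 40 panel UMIs no optic nerve comparison and a score above 1 no pigment epithelium, fibrous or muscle comparison with neural retina. Depth limits Gpx1, Gpx3, Prdx1 and Prdx2 most, and the optic nerve region had 4908 UMIs in frame 2.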
